A study of Mus musculus with 12 samples.

Results

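The genes described here mark the Schwann cell and melanocyte lineages: Sox10, Foxd3, Erbb3, Cdh19, Mitf, Kit, Dct and Pmel. They were chosen by symbol and are 8 of the 56691 genes counted in each library of a study of mouse embryonic palatal shelves, the folds on either side of the embryonic mouth that grow together into the palate. RNA was sequenced from 12 libraries at gestational day 12, 3 in each of 4 groups. Embryos of the knockout group were untreated and carried a conditional deletion of Dnmt1, whose product restores methylation on newly replicated DNA. The AzadC group was wild type and treated with 5-aza-2'-deoxycytidine, which is built into DNA in place of cytidine and traps the methylating enzymes. The vehicle group was wild type and received the vehicle of that drug, and the control group was wild type and untreated. A library held shelves of 2 pooled embryos of the same genotype, so that a group came from 6 embryos, per the labels' protocols. No source used here gives the Cre driver of the knockout, the strain, or how much AzadC was given, when and by which route. All 8 lineage genes are annotated as protein-coding on GRCm38 (GENCODE M21). The glial genes are Sox10 at chr15:79154908-79165240 (minus strand), Foxd3 at chr4:99656299-99658622 (plus strand), Erbb3 at chr10:128567523-128589652 (minus strand) and Cdh19 at chr1:110888326-110977584 (minus strand). The melanocyte genes are Mitf at chr6:97807052-98021349 (plus strand), Kit at chr5:75574916-75656722 (plus strand), Dct at chr14:118012790-118052244 (minus strand) and Pmel at chr10:128704195-128720238 (plus strand).

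Schwann cells and melanocytes both descend from the neural crest, the migratory cell population that also forms most of the mesenchyme of the palate. Sox10 is the transcription factor that maintains the early glial and pigment lineages, and in glia it works with the neuregulin receptor Erbb3, through which axons keep Schwann cell precursors alive. Part of the melanocytes of the skin arise from such nerve-associated precursors, in which Mitf switches on pigment genes such as Dct and Pmel and the receptor Kit supports survival and migration.

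Depth was 12640536 to 33113790 expected counts per library. Dnmt1 itself averaged 190 ± 10.7 CPM in the knockout and 274 ± 14.4 CPM in the control (CPM are counts scaled to a common library total; SD, n = 3 each), and 434 ± 41.7 CPM with AzadC and 451 ± 1.98 CPM with vehicle. The wild type vehicle and control groups differed in Dnmt1 (edgeR log2 change 0.72, adjusted p = 0.000286), and the knockout was set against each of them. Palatal mesenchyme genes such as Prrx1 and Osr2 were present in every group, with a sum over 9 genes of 1660 to 2080 CPM in knockout, 1850 to 1950 CPM in AzadC, 1440 to 1910 CPM in vehicle and 2090 to 2570 CPM in control libraries. In whole shelves, fewer cells of a type and less RNA per cell cannot be told apart.

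The promoters of Kit, Mitf and Dct are printed below because both perturbations act on methylation at CG dinucleotides, and these genes give the firmest difference between groups (Kit), the factor that switches on pigment genes (Mitf) and a gene that Mitf is known to control (Dct). Each runs 5′ to 3′ on the gene's strand from 250 bases before to 50 after a RefSeq start on GRCm38.p6, and capitals mark every CG. Kit (chr5:75574737-75575036, plus strand) has 20 of them, the most downstream of 3 Mitf starts (chr6:97991533-97991832, plus strand) has 8, and Dct (chr14:118052197-118052496, minus strand) has 5.
Kit promoter: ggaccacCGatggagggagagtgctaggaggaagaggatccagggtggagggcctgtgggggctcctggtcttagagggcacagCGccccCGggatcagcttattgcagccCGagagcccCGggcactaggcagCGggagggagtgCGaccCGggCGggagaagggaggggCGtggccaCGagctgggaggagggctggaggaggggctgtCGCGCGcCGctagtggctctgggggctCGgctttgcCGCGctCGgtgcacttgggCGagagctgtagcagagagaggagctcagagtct
Mitf promoter: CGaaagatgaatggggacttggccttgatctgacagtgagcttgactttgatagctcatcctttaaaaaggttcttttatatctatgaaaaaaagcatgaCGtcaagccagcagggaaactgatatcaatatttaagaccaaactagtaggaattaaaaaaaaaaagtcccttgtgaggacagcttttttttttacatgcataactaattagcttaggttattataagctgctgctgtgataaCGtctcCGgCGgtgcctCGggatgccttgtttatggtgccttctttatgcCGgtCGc
Dct promoter: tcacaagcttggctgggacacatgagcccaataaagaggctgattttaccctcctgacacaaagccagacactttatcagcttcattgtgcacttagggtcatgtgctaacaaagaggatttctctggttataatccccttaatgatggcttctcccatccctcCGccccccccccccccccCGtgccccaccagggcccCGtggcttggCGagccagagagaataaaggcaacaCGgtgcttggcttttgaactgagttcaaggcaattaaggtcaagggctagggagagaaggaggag
Of the 8 genes, 4 had promoter entries, 7 in all. Among 32851 RefSeq promoter windows of 300 bases the median was 7 CG. A window had at least as many CG as this one of Kit in 26.5% of all promoters, as Mitf in 48.6% and as Dct in 62%. Foxd3, with 25 CG, was matched or exceeded by 18.4%, and the most upstream Mitf start, with 22 CG, by 23.1%. The letters CATGTG, the core of the element through which Mitf binds pigment genes, were searched on both strands. They stood in the Dct window and in none of the other 6, against 14.2% of all windows. Methylation was not measured in these libraries, so the sequences show where CG lie and not their state.

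In the deposited TPM values, which are scaled for transcript length, averaged over the 12 libraries, the glial receptor Erbb3 was the most abundant of the 8 at 17.8 TPM. Kit followed at 15.2 TPM, Sox10 at 12.8 TPM, Cdh19 at 3.75 TPM, Foxd3 at 1.51 TPM and Mitf at 1.17 TPM. The pigment genes came last, Pmel at 0.612 TPM and Dct at 0.152 TPM. Neighbours in this order overlapped over the libraries: Erbb3 ran from 8.07 to 27.58 TPM, Kit from 9.68 to 18.61 TPM and Sox10 from 1.99 to 23.46 TPM, and the same held for each lower pair. Sox10 and Erbb3 were thus present at moderate levels. The libraries were made from whole shelves, and which cells made Erbb3 was not tested. The pigment enzymes and melanosome proteins that would mark a maturing melanocyte were near the limit of detection. Tyr and Tyrp1, the enzymes that make melanin, had no count in any knockout or vehicle library, and their highest single values were 0.0788 CPM in an AzadC and 0.0766 CPM in a control library.

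**Figure D1:**
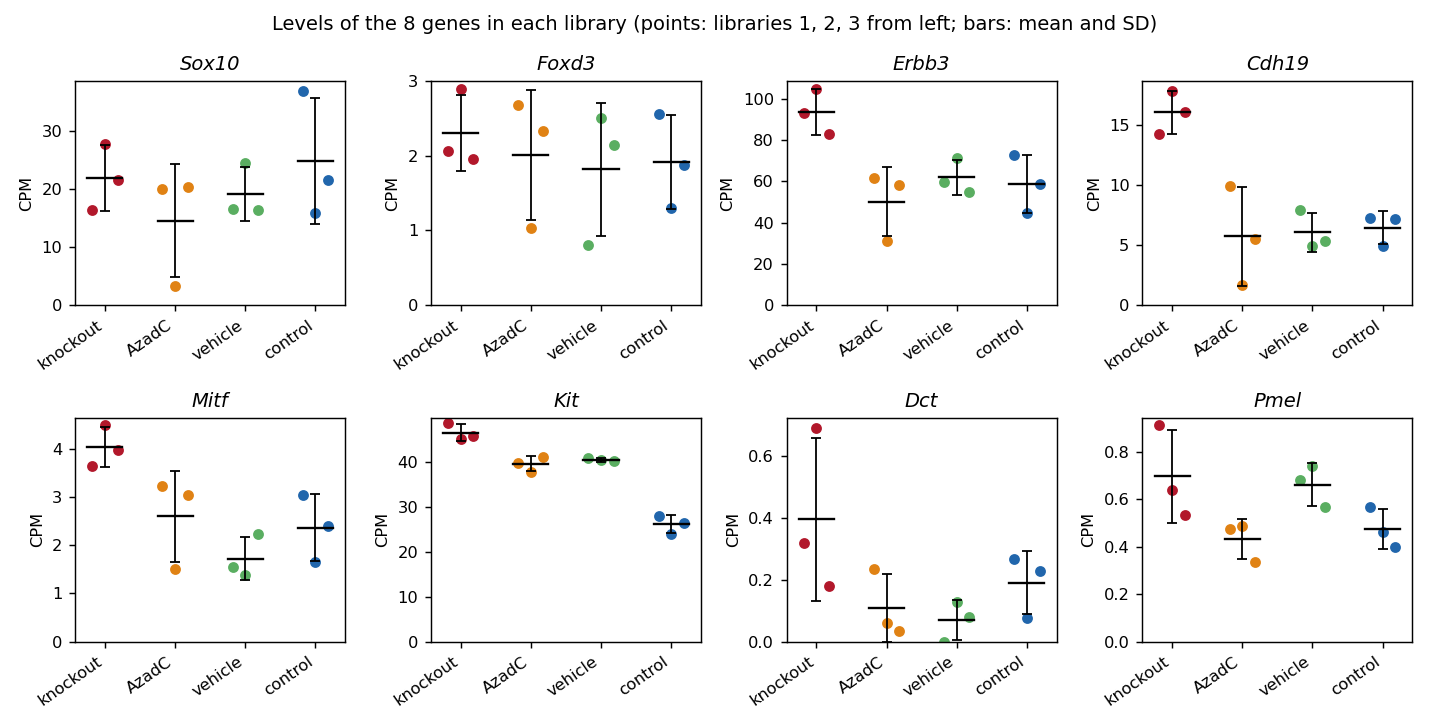
CPM (y axis, from 0) of the 8 genes in each of the 12 libraries, by group; points are libraries 1, 2 and 3 from the left, and bars are the mean and SD of 3. The knockout libraries lie above all 9 others for Erbb3, Cdh19, Mitf and Kit, and the second AzadC library is low for Sox10, Erbb3 and Cdh19.

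In the knockout against the control, 2 of the 7 genes that could be tested were higher and none was lower. These were Kit and Cdh19, while Dct had too few counts to be tested. Over all 17335 tested genes 14.3% passed in either direction and 7.83% were higher. In the knockout against the vehicle group, Cdh19 and Mitf were higher and none was lower, where 10.8% of all genes passed and 6.7% were higher. For 4 of the 7, Erbb3, Cdh19, Mitf and Kit, all 3 knockout libraries lay above all 9 others, which held for 7.02% of all tested genes. The median log2 change of the 7 was 0.68 against the control and 0.32 against the vehicle group, beside medians of -0.0026 and -0.0033 over all tested genes. The genes were chosen with earlier results of these data known, so these counts and medians are only descriptions. Calls are edgeR quasi-likelihood tests with Benjamini-Hochberg adjusted p below 0.05 over all tested genes.

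**Figure D2:**
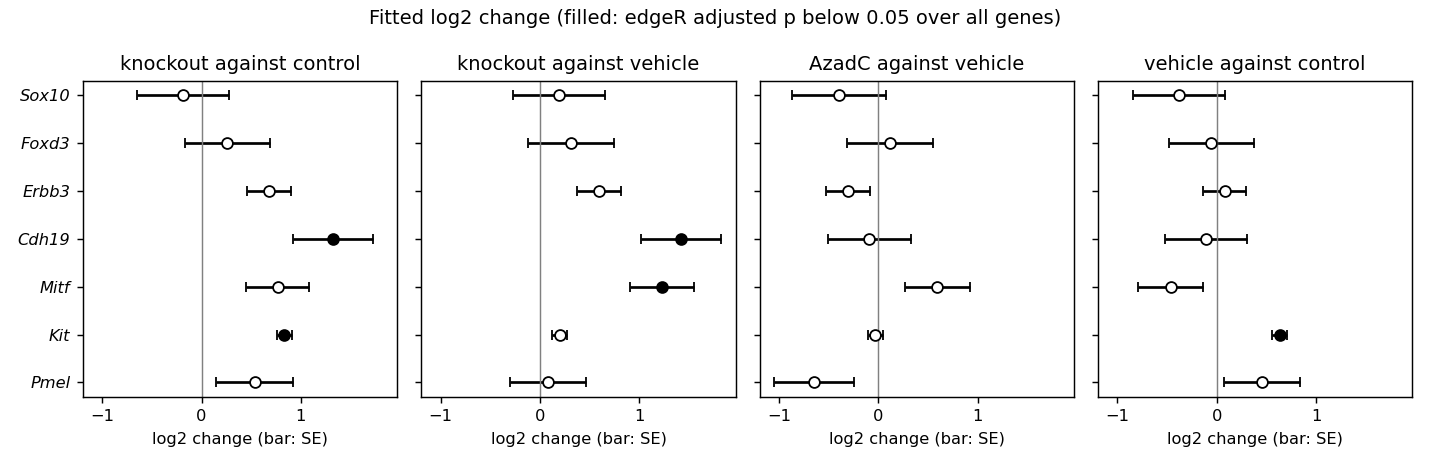
Fitted log2 change (x axis, bar: SE) of the 7 tested genes in knockout against control, knockout against vehicle, AzadC against vehicle and vehicle against control; filled points passed at an adjusted p below 0.05. Cdh19 and Kit are filled in the first panel, Cdh19 and Mitf in the second, none in the third and Kit in the last.

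Sox10, the factor that defines the glial and early pigment lineage, showed no difference between any groups that passed. It had 16.4, 27.8 and 21.6 CPM in the knockout libraries, 19.9, 3.27 and 20.4 CPM with AzadC, 16.5, 24.4 and 16.3 CPM with vehicle, and 36.9, 15.9 and 21.5 CPM in the control. The groups overlapped, and 2 single libraries stood out: the second AzadC library at the low end and control 1 at the high end. The log2 change was -0.18 ± 0.46 (SE) in the knockout against the control (edgeR adjusted p = 0.849), with a 95% interval of -1.09 to 0.73, so that neither a halving nor a moderate gain could be told from no change at this spread. Against the vehicle group it was 0.19 ± 0.47 (adjusted p = 0.852). Without control 1 the estimate against the control turned to 0.23 (adjusted p = 0.821).

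Foxd3, a transcription factor of neural crest progenitors and Schwann cell precursors, was low and likewise did not separate the groups. It had 2.06, 2.9 and 1.96 CPM in the knockout, 2.68, 1.03 and 2.34 CPM with AzadC, 0.804, 2.51 and 2.14 CPM with vehicle, and 2.56, 1.3 and 1.88 CPM in the control. The lowest value came from vehicle 1, and all 4 groups overlapped. Its log2 change was 0.26 ± 0.43 against the control and 0.32 ± 0.43 against the vehicle group in the knockout (edgeR adjusted p = 0.749 and 0.712). The 2 transcription factors at the head of the glial lineage therefore gave no call, and their groups overlapped. Of the surface genes, Cdh19 was called and Erbb3 was not. For both, all 3 knockout libraries lay above all 9 others, as for 7.02% of all tested genes.

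Cdh19, a cadherin typical of Schwann cell precursors, was the glial gene that passed in the knockout against both wild type groups. It had 14.3, 17.9 and 16.1 CPM in the knockout, 9.93, 1.7 and 5.54 CPM with AzadC, 7.92, 4.88 and 5.36 CPM with vehicle, and 7.3, 4.9 and 7.19 CPM in the control. No knockout library overlapped any other. The means were 16.1 ± 1.81 CPM in the knockout, against 6.06 ± 1.63 CPM with vehicle and 6.47 ± 1.35 CPM in the control (SD, n = 3 each). The log2 change was 1.32 ± 0.40 against the control (edgeR adjusted p = 0.0455) and 1.42 ± 0.41 against the vehicle group (adjusted p = 0.0402). Both calls lie close to the threshold: the first was lost with DESeq2 (adjusted p = 0.0593), against a 1.2-fold change (0.101) and without any 1 knockout or control library, AzadC 3, vehicle 2 or vehicle 3 (0.0506 to 0.154). The second was lost against a 1.2-fold change (0.0879) and without any 1 knockout library, AzadC 3, vehicle 2 or vehicle 3 (0.0541 to 0.138).

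Erbb3, the neuregulin receptor that signals as a partner of Erbb2, was higher in each knockout library than in any other library but did not pass in the test of all groups. Its values were 93.2, 105 and 82.9 CPM in the knockout, 61.5, 30.8 and 58.1 CPM with AzadC, 59.5, 71.5 and 54.8 CPM with vehicle, and 72.6, 44.4 and 58.9 CPM in the control. The second AzadC library was again the lowest. The log2 change was 0.68 ± 0.22 against the control (edgeR adjusted p = 0.0579) and 0.60 ± 0.22 against the vehicle group (adjusted p = 0.108). Against the control it passed with limma-voom (0.042), without a filter on low counts (0.000298), with only the groups compared (0.0334, and 0.0225 when the replicate number was also a block), and without AzadC 2 (0.0117) or control 1 (0.0333). With the mean of the vehicle and control groups in place of the control, a comparison added after the data were seen, the change was 0.64 (adjusted p = 0.037).

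Relative to Sox10 in the same library, the knockout had more Cdh19 and Erbb3 than the vehicle and control libraries, again by a comparison added after the data were seen. The ratio of Cdh19 to Sox10 in CPM was 0.874, 0.644 and 0.745 in the knockout, 0.5, 0.519 and 0.272 with AzadC, 0.479, 0.2 and 0.328 with vehicle, and 0.198, 0.308 and 0.334 in the control. The mean log2 ratio was -0.42 ± 0.22 in the 3 knockout libraries and -1.77 ± 0.49 in the 6 vehicle and control libraries, a difference of 1.35 (two-sided exact permutation p = 0.0119, the smallest that 3 against 6 libraries can give). The ratio of Erbb3 to Sox10 was 5.70, 3.78 and 3.84 in the knockout, 3.1, 9.43 and 2.85 with AzadC, 3.6, 2.93 and 3.36 with vehicle, and 1.97, 2.79 and 2.74 in the control. The knockout libraries lay above the vehicle and control libraries, but AzadC 2, where Sox10 was lowest, had the highest ratio of all. The mean log2 ratio in the knockout exceeded that of the 6 vehicle and control libraries by 0.62 (exact permutation p = 0.0238). Adjusted over the 7 ratios examined, these exact permutation p-values were 0.0278 for Cdh19 to Sox10 and 0.0417 for Erbb3 to Sox10. The ratios were chosen with the levels of these genes known, which the adjustment does not cover. Whether the same cells made Erbb3 and Sox10 was not tested. The 6 libraries also pool the vehicle and control groups, which differed from each other in other genes. Between the knockout and control groups alone, the exact permutation test of 3 against 3 libraries allows no p below 0.1.

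**Figure D3:**
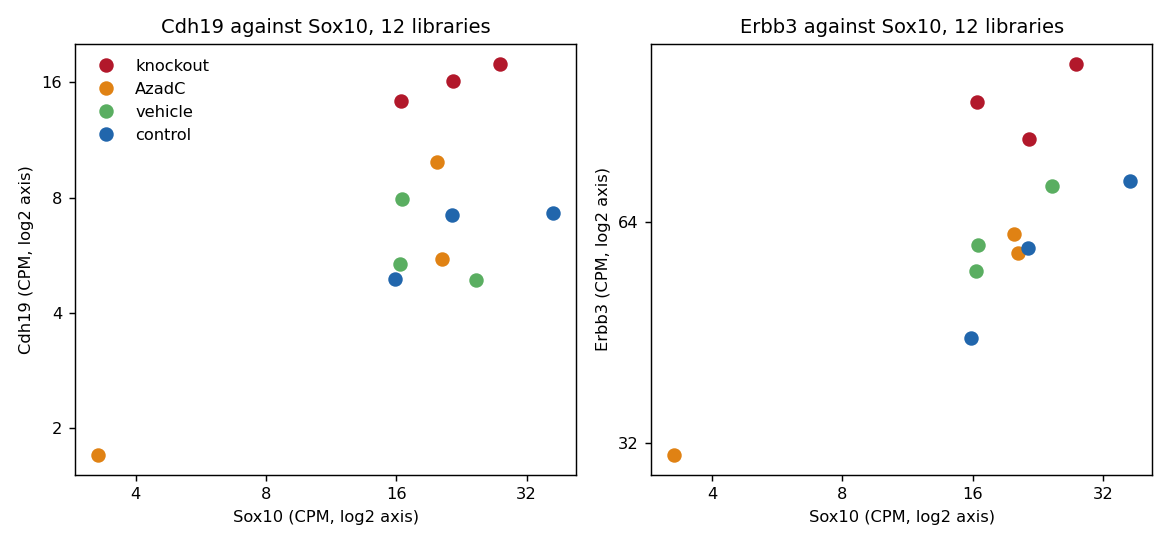
Cdh19 (left) and Erbb3 (right) against Sox10, all in CPM on log2 axes, with 1 point per library. The 3 knockout libraries lie above the 9 others on both vertical axes, while their Sox10 values of 16.4 to 27.8 CPM fall among those of the wild type libraries.

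Of the 26 other Schwann and glial genes, 21 could be tested. In the knockout 1 was higher and 1 lower against the control, where 14.3% of all tested genes passed, with a median log2 change of -0.014. Against the vehicle group 1 was higher and none lower, where 10.8% of all tested genes passed, with a median of 0.302. Itga4, an integrin subunit of migrating neural crest, was the higher one at 61.8 ± 7.87 CPM in the knockout and 37.3 ± 13.7 CPM in the control (log2 change 0.74, edgeR adjusted p = 0.0425). Pmp22, a myelin protein also made by mesenchyme, was the lower one at 36.3 ± 0.653 CPM in the knockout and 67.8 ± 12.2 CPM in the control (log2 change -0.90, adjusted p = 0.00326). Against the vehicle group, at 35.9 CPM, it had a log2 change of 0.012 (adjusted p = 0.947), and against the mean of both wild type groups -0.45 (0.0631). Against the vehicle group the higher gene was Ptprz1, a receptor phosphatase of glial precursors, with 29.3 ± 11.6 CPM in the knockout and 6.25 ± 0.911 CPM with vehicle (log2 change 2.22, adjusted p = 0.00212). The control, at 14.1 ± 5.18 CPM, overlapped the knockout, and Ptprz1 did not pass against it (log2 change 1.07, edgeR adjusted p = 0.066). Genes of neurons, along whose axons Schwann cell precursors travel, summed over 18 genes to 85.9 to 93 CPM in knockout, 49.4 to 64 CPM in AzadC, 63.9 to 69.2 CPM in vehicle and 73.7 to 101 CPM in control libraries, and 2 of 13 tested were higher and 1 lower in the knockout against the control. Their part in the Cdh19 and Erbb3 results was not tested. The Itga4 call was lost with only the groups compared (adjusted p = 0.0798), with the replicate number as a block (0.0603), against a 1.2-fold change (0.14) and without knockout 1 or 2, control 1 or 2, vehicle 2 or any 1 AzadC library (0.0527 to 0.147).

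Sox10, Cdh19 and Erbb3 varied between libraries of 1 group more than most genes at their level, in large part through the second AzadC library. The SD of log2 CPM within groups was 0.846 for Sox10, 0.683 for Cdh19 and 0.353 for Erbb3, against a median of 0.178 over all tested genes. Among genes within 0.5 log2 units of their mean level, these stood at the 99.6th, 97.7th and 98.8th percentiles. Without the second AzadC library the SDs were 0.423, 0.352 and 0.236, at the 97.8th, 85.3rd and 96.4th percentiles. Kit, at 0.0695, stood at the 7.39th, and at 0.0679 and the 8.54th without that library.

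The second AzadC library was the lowest of the 12 for several glial genes at once. It was lowest for 3 of the 6 member genes that average at least 1 CPM (Sox10, Erbb3 and Cdh19) and for 8 of 18 other glial genes at that level, among them Fabp7, Gfra3, Moxd1, Ptprz1, Ednrb and L1cam. That is 50% and 44.4%, beside 10.1% of all tested genes at that level. Among the marker lists, it was lowest for 2 of 9 neuronal genes, for 2 of 9 palatal mesenchyme genes (Msx1 and Shox2) and for none of 6 endothelial genes. Without it, 3 of the 7 genes passed in the knockout against the control and 3 against the vehicle group, Erbb3 being the added one in both. The AzadC results that follow are given with and without this library.

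**Figure D4:**
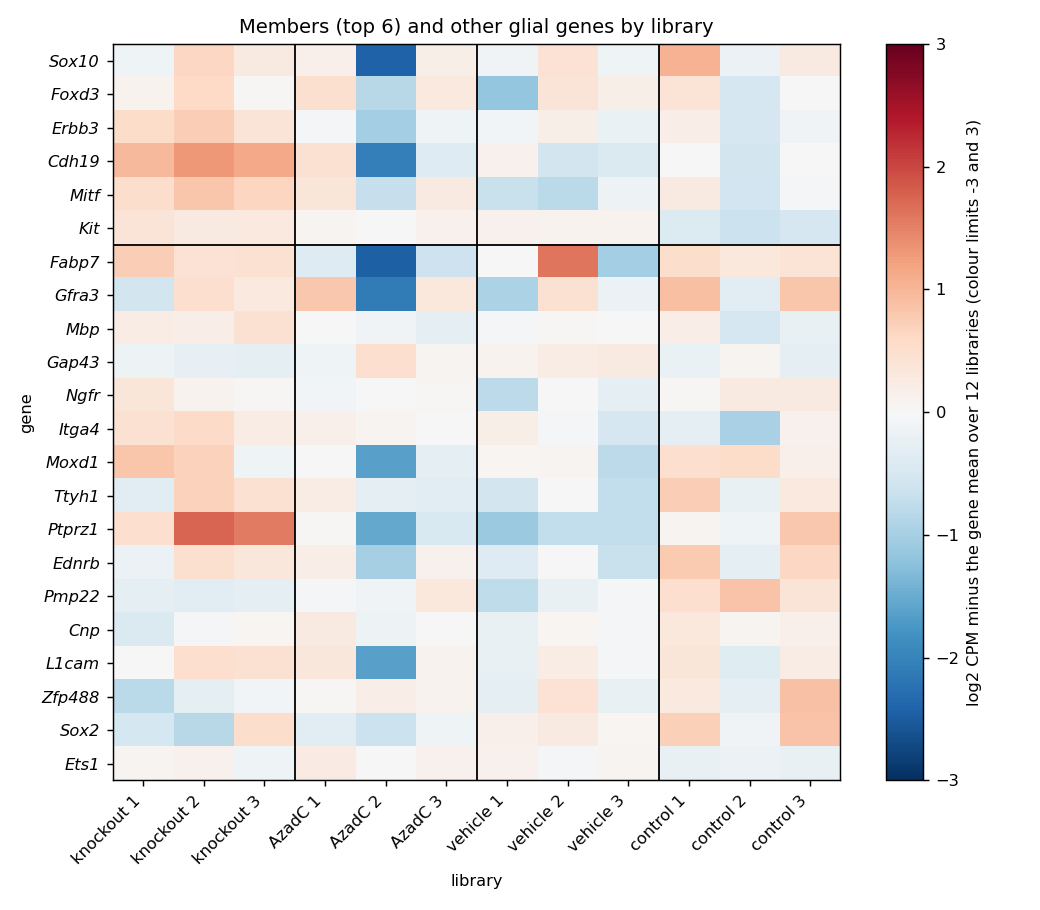
Log2 CPM of 6 member genes (top) and 16 of the 18 other glial genes (below) in each library, minus the gene's mean over 12 libraries, as colour (red higher, blue lower, limits -3 and 3). The AzadC 2 column is blue for Sox10, Cdh19, Fabp7, Gfra3, Ptprz1 and L1cam, and the knockout columns are red for Cdh19, Erbb3 and Mitf.

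After AzadC, none of the 7 tested genes passed against the vehicle group, in which 0.0115% of all tested genes passed by edgeR (2 genes). Sox10 had a log2 change of -0.40 ± 0.48 (edgeR adjusted p = 0.949), with a 95% interval of -1.33 to 0.54, and without AzadC 2 it was 0.076. Cdh19 had a change of -0.090 ± 0.42 (adjusted p = 0.988) and 0.35 without AzadC 2. Erbb3 had an estimate of -0.31 ± 0.22 (adjusted p = 0.902), and -0.049 without that library. Mitf, the largest positive estimate, had 0.60 ± 0.33 (adjusted p = 0.839), and 0.87 without it. The 3 glial estimates thus turned or shrank without that library, and that of Mitf grew. Kit was the most tightly bounded at -0.032 ± 0.075, with a 95% interval of -0.18 to 0.12, and 0.0056 without AzadC 2. At an unadjusted p below 0.05 none of the 7 passed by edgeR, and at the adjusted threshold none did by DESeq2 or limma-voom. The 95% interval of Erbb3 (-0.75 to 0.13) held neither a doubling nor a halving. Those of Foxd3 (-0.73 to 0.97) and Cdh19 (-0.91 to 0.73) came near a doubling and a halving. Because the intervals use a normal quantile, which is narrow for 3 libraries per group, those bounds are not firm. The intervals of Sox10 and Pmel reached past a halving and that of Mitf past a doubling.

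Set directly against each other, the knockout effect and the AzadC effect differed for 1 of the 7, Kit. Over all tested genes 4.4% differed by edgeR, 2.2% upwards as Kit did. Kit averaged 46.6 CPM in the knockout, 39.6 CPM with AzadC, 40.5 CPM with vehicle and 26.1 CPM in the control. Its log2 change in the knockout against the vehicle group was 0.20 and did not pass (edgeR adjusted p = 0.11). Vehicle against control it was 0.63 and passed (adjusted p = 0.00128), and the contrast contains that change. The difference between the effects is the log2 change in the knockout against the control minus that in AzadC against the vehicle group. It was 0.98 ± 0.31 for Erbb3 (edgeR adjusted p = 0.0939) and 1.41 ± 0.58 for Cdh19 (adjusted p = 0.191), which did not pass. Without a filter on low counts both passed, at 0.97 (adjusted p = 0.000505) and 1.40 (0.0222). The difference for Mitf was 0.17 ± 0.46 (adjusted p = 0.887). Without AzadC 2 the difference was 0.73 for Erbb3 (adjusted p = 0.0973), 0.97 for Cdh19 (0.168), -0.10 for Mitf and 0.83 for Kit (0.00238).

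Mitf, the factor at the head of melanocyte differentiation, was higher in the knockout than in the vehicle group. It had 3.65, 4.48 and 3.97 CPM in the knockout, 3.23, 1.51 and 3.04 CPM with AzadC, 1.55, 1.38 and 2.22 CPM with vehicle, and 3.04, 1.65 and 2.4 CPM in the control. Every knockout library lay above every other. The log2 change was 1.23 ± 0.32 against the vehicle group (edgeR adjusted p = 0.0272) and 0.77 ± 0.32 against the control (adjusted p = 0.13). The call against the vehicle group was lost without knockout 2 or 3, or vehicle 1 or 2 (adjusted p 0.0606 to 0.102), and against a 1.2-fold change (0.0651). Against the mean of both wild type groups it was 0.998 (adjusted p = 0.0244).

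Mitf is also made by macrophages, osteoclast precursors and mast cells, and macrophage genes too were higher in the knockout. All 14 macrophage genes passed against the control and all 14 against the vehicle group, with median log2 changes of 2.13 and 1.72, and their sum ran from 360 to 396 CPM in the knockout, 159 to 173 CPM with AzadC, 100 to 122 CPM with vehicle and 77.2 to 108 CPM in the control. Csf1r, the receptor of the macrophage growth factor, had 101, 89 and 86.5 CPM in the knockout, against 20.7, 16.1 and 17.3 CPM in the control (log2 change 2.35, edgeR adjusted p = 1.78e-07). Tfec, a relative of Mitf found in macrophages, averaged 2.49 ± 0.222 CPM in the knockout and 0.72 ± 0.377 CPM in the control (log2 change 1.74, adjusted p = 0.0341), a call lost against a 1.2-fold change (0.0692) and without any 1 knockout or control library (0.0503 to 0.09). The other relatives Tfe3 and Tfeb did not pass, with log2 changes of 0.072 and -0.56. Vehicle against control, Mitf had a log2 change of -0.46 and did not pass, while 2 of the 14 macrophage genes were higher and none lower. Per macrophage sum, Mitf was lower in the knockout than in the 6 vehicle and control libraries, by 0.92 on the log2 scale. The exact permutation p was 0.0357, and 0.0417 adjusted over 7 ratios. With the sum known to have risen more than Mitf, that direction was set beforehand. The test therefore cannot tell which cells made Mitf. With AzadC this ratio was 0.0203, 0.00893 and 0.0176, and in the knockout 0.00922, 0.0119 and 0.011. Per Sox10, Mitf was higher in the knockout, by 1 log2 unit (exact permutation p = 0.0119, adjusted 0.0278). The AzadC libraries, left out of that test, had Mitf to Sox10 ratios of 0.163, 0.463 and 0.149. These overlapped the knockout ratios of 0.223, 0.161 and 0.184. Both ratios of Mitf were chosen after the data were seen. The part of macrophages in the Mitf result was not tested.

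**Figure D5:**
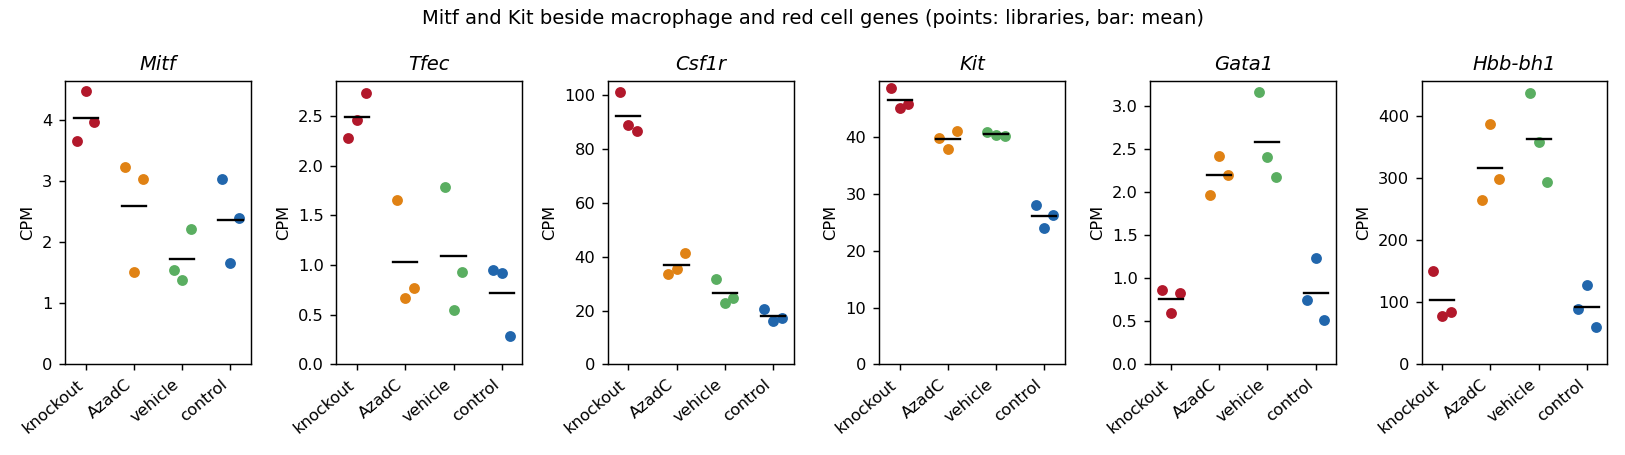
CPM (y axes, from 0) of Mitf, the macrophage genes Tfec and Csf1r, Kit, and the red cell genes Gata1 and Hbb-bh1 in each library, by group; bars are means of 3. Mitf, Tfec and Csf1r are highest in the knockout libraries, and Kit, Gata1 and Hbb-bh1 are higher in the AzadC and vehicle libraries than in the control.

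Kit, the receptor of Kit ligand on melanoblasts, mast cells and blood progenitors, gave the firmest differences of the 8 genes, including one between the wild type groups. It had 48.7, 45.2 and 45.8 CPM in the knockout, 39.9, 37.9 and 41.2 CPM with AzadC, 41.0, 40.5 and 40.2 CPM with vehicle, and 28.0, 24.1 and 26.4 CPM in the control. The control libraries were the lowest, below all 9 others, and the knockout libraries the highest. Against the control, the log2 change in the knockout was 0.83 ± 0.076 (edgeR adjusted p = 1.14e-05). Against the vehicle group it was 0.20 ± 0.075 and did not pass (adjusted p = 0.11), with a 95% interval of 0.054 to 0.35. The size of the knockout difference thus depended on which wild type group stood beside it.

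Vehicle against control, Kit was 1 of the 7 tested genes that passed, and the only one, where 3.52% of all tested genes passed and 1.46% were higher. It averaged 40.5 ± 0.435 CPM with vehicle and 26.1 ± 1.98 CPM in the control (log2 change 0.63 ± 0.076, edgeR adjusted p = 0.00128). The knockout effect on Kit exceeded the AzadC effect by 0.87 ± 0.11 (adjusted p = 0.000731), a contrast that rests on the control for the knockout and on the vehicle group for AzadC. Of 11 genes of erythroid and blood progenitor cells, 3 were higher and none lower with vehicle against the control. Their sums overlapped between the vehicle and control groups, with 1740 to 2670 CPM in knockout, 2470 to 3100 CPM in AzadC, 2850 to 3930 CPM in vehicle and 1560 to 4140 CPM in control libraries. One of the 3 was Gata1, an erythroid and mast cell factor, at 2.58 ± 0.511 CPM with vehicle and 0.828 ± 0.363 CPM in the control (log2 change 1.61, adjusted p = 0.0216). That call was lost with only the groups compared (0.0576), against a 1.2-fold change (0.0582) and without vehicle 1 or 3 or control 1 or 3 (0.0542 to 0.0925). In the knockout against the control none of these 11 passed by edgeR, 1 had an unadjusted p below 0.05, and Gata1 averaged 0.763 ± 0.15 CPM in the knockout. The part of blood cells in the Kit result was not tested.

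Mast cells, the other Kit-bearing cells of connective tissue, left little trace. Their 10 genes summed to 5.62 to 7.29 CPM in the knockout, 5.41 to 7.93 CPM with AzadC, 4.56 to 9.59 CPM with vehicle and 3.45 to 6.56 CPM in the control, and 9 of the 10 averaged below 1 CPM in the knockout. The exception was Gata2, at 5.80 ± 0.904 CPM in the knockout and 3.99 ± 1.71 CPM in the control, a factor also made by endothelium. The protease gene Cpa3 averaged 0.377 ± 0.252 CPM in the knockout and 0.429 ± 0.195 CPM in the control. None of the 3 mast cell genes that could be tested passed by edgeR in any comparison, nor had an unadjusted p below 0.05.

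Dct, the dopachrome tautomerase that acts late in melanin synthesis and an early marker of melanoblasts, was covered by only 50 counts in 12 libraries. It had 7, 14 and 3 counts in the knockout, 3, 1 and 1 with AzadC, 0, 4 and 2 with vehicle, and 9, 2 and 4 in the control, where a count of 0 allows up to 3. All 3 knockout libraries lay above the 3 vehicle libraries in CPM, as for 16% of all tested genes, and overlapped those of the control. Fitted without a filter on low counts, the log2 change was 1.03 ± 0.92 against the control (edgeR adjusted p = 0.632) and 2.28 ± 1 against the vehicle group (adjusted p = 0.204). At this depth no difference was detectable. Dct also overlaps an antisense gene, 4930435M08Rik, over 1891 bases. Genes of the retinal pigment epithelium, another tissue that makes Dct and Pmel, summed over 8 genes to 5.71 to 19.4 CPM in knockout, 4.89 to 5.91 CPM in AzadC, 5.48 to 7.18 CPM in vehicle and 7.47 to 8.35 CPM in control libraries. Of the 19.4 CPM, 13 CPM came from Ttr in knockout 1, and without Ttr the knockout libraries had 5.66 to 7.41 CPM. In this list none of 4 tested passed by edgeR in any comparison or had an unadjusted p below 0.05.

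Pmel, the protein that forms the fibrils of the melanosome, was likewise at the floor. It had 20, 13 and 9 counts in the knockout, 6, 8 and 10 with AzadC, 11, 23 and 14 with vehicle, and 19, 12 and 7 in the control. In CPM the means were 0.696 ± 0.196 in the knockout, 0.43 ± 0.0838 with AzadC, 0.661 ± 0.0888 with vehicle and 0.475 ± 0.0846 in the control (SD, n = 3 each). Its log2 change was 0.54 ± 0.39 in the knockout against the control and -0.65 ± 0.40 in AzadC against vehicle (edgeR adjusted p = 0.408 and 0.876). Pmel overlaps Cdk2 by 837 bases and Dgka by 105 bases, both on the opposite strand. Since no source used here states whether the counting used strand, reads of Pmel and of those genes cannot be told apart where they overlap.

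Of the 21 other pigment cell genes, 14 could be tested, and 1 was higher and 2 lower in the knockout against the control, where 14.3% of all tested genes passed. Their median log2 change was -0.052. Slc24a5, a cation exchanger of the pigment granule, averaged 2.23 ± 0.108 CPM in the knockout and 0.72 ± 0.307 CPM in the control (log2 change 1.59, edgeR adjusted p = 0.0131, and 0.0625 without control 2). Rab27a, which carries melanosomes and other granules, and Sox5, a Sox10 partner that is also a cartilage factor, were lower, with log2 changes of -0.74 and -1.31 (adjusted p = 0.0017 and 0.000349). Mlana, a melanosome protein, averaged 0.131 ± 0.069 CPM in the knockout and had no count in the vehicle and control libraries. Slc7a11, a cystine transporter, was higher in the knockout at 13.8 ± 4.14 CPM than in the vehicle group at 1.53 ± 0.501 CPM (log2 change 3.21, adjusted p = 1.07e-05). It was lower with vehicle than in the control, which had 8.42 ± 2.33 CPM (log2 change -2.49, adjusted p = 0.000976). The pigment gene called as higher thus differed with the wild type group used.

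The ligands of Erbb3, Kit and the endothelin receptor were all present in the shelves. Nrg1, the neuregulin that activates Erbb3, averaged 3.70 ± 0.41 CPM in the knockout and 4.88 ± 0.645 CPM in the control (edgeR adjusted p = 0.259). Kitl, the ligand of Kit, averaged 9.69 ± 0.441 CPM in the knockout and 12.9 ± 3 CPM in the control (adjusted p = 0.112). Edn3, the endothelin that guides melanoblasts, averaged 24.4 ± 5.83 CPM in the knockout and 26.5 ± 4.99 CPM in the control, and its receptor Ednrb 23.9 ± 5.29 CPM in the knockout and 27.3 ± 9.66 CPM in the control (adjusted p = 0.67 and 0.742). None of these 4 passed by edgeR, and Kitl alone had an unadjusted p below 0.05.

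Among 15 tested genes of neuregulin and ErbB signalling, 1 was higher and 2 lower in the knockout against the control, where 14.3% of all tested genes passed. Erbb2, the signalling partner of Erbb3, was lower at 119 ± 9.47 CPM in the knockout and 146 ± 8.67 CPM in the control (log2 change -0.29, edgeR adjusted p = 0.0359), a call lost with only the groups compared (0.0541), with the replicate number as a block (0.0556), against a 1.2-fold change (0.702) and without knockout 2 or 3 or control 1 or 2 (0.0658 to 0.158). Egfr, the epidermal growth factor receptor, was lower at 74.2 ± 10.2 CPM in the knockout and 144 ± 22.5 CPM in the control (log2 change -0.96, adjusted p = 0.000497). The adaptor Grb2 was higher by 0.28 on the log2 scale (adjusted p = 0.0307), a call lost against a 1.2-fold change (0.767) and without any 1 knockout or control library (0.0519 to 0.0952). Of this receptor family Egfr and, less firmly, Erbb2 were thus called as lower in the knockout against the control. Erbb3, for which each knockout library lay above all others, was not called.

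Of 13 tested genes of Kit ligand and endothelin signalling, 1 was higher and 2 lower in the knockout against the control, where 14.3% of all tested genes passed. Besides Grb2, counted here too, these were the signal transducer Stat5b (log2 change -0.62, edgeR adjusted p = 0.000314) and the endothelin-processing enzyme Ece2 (-0.55, adjusted p = 0.0104, but 0.0543 without knockout 2 and 0.0739 against a 1.2-fold change). Among 6 tested Sox relatives of Sox10, 3 were lower and none higher in that comparison, beside the same 14.3% of all tested genes in either direction. Sox9, which leads the cartilage lineage of the cranial neural crest, averaged 29.2 ± 5.05 CPM in the knockout and 101 ± 31 CPM in the control (log2 change -1.80, adjusted p = 3.01e-05). Sox6, a partner of Sox5 in cartilage, had a log2 change of -1 (adjusted p = 0.00388), and Sox5 is given above. Sox8, which shares the glial lineage with Sox10, averaged 9.87 ± 1.90 CPM in the knockout and 7.03 ± 2.80 CPM in the control and did not pass (adjusted p = 0.465). In AzadC against vehicle none of the tested genes of the glial, pigment, ErbB, Kit ligand, Sox or Mitf family lists passed by edgeR. At an unadjusted p below 0.05 there were 2 of 21 glial genes, 1 of 15 ErbB genes and 1 of 13 genes of the Kit ligand list, and none in the other lists.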

How the data were processed

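Gene levels were measured by RNA sequencing of 12 palatal shelf libraries, 3 per group, grouped by the sample labels. Per the file headers, the deposited values are RSEM expected counts and TPM per gene. The submitters' processing notes name RSEM 1.3.1, STAR 2.7.0 and the build mm10. RSEM divides reads that match several genes, so the deposited expected counts need not be whole (90.6% to 93.1% of values were, within 0.005). The authors' TPM values served only to compare levels between genes.

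After rounding, the expected counts were tested with edgeR 4.0.16 (R 4.3.3). The fit took 17335 genes kept by filterByExpr (Dct was not among them), with TMM scaling (0.985 to 1.01) and 1 mean per group over 12 libraries; p-values of the quasi-likelihood test were adjusted by Benjamini-Hochberg over all tested genes. SEs are the absolute log2 change over the square root of F, and CPM are TMM-scaled. The 95% intervals take the SE times a normal quantile, so they are narrower than the quasi-likelihood test would give. The common coefficient of biological variation was 0.152. No replicates agreed within sampling noise. Labels do not tie libraries to litters, so p-values measure only the spread between these pools. Deviations from the group means correlated at 0.476, 0.162 and 0.394 in the 3 same-numbered pairs of knockout and control libraries. In no other pair of groups did all 3 exceed 0.1 (-0.315 to 0.266). No label pairs the libraries, and no correlation was computed between libraries of unlike number, so a pairing by number was not tested.

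The members and lists were chosen with earlier results of these data known. Named genes are the members, up to 6 genes of each list with the smallest adjusted p, and the ligands and partner receptors; marker genes, neighbours and genes called only against the vehicle group were named after their values were seen. Coordinates are from GENCODE M21 (GRCm38) and promoters from RefSeq (GRCm38.p6). As alternatives, DESeq2 1.42.0, limma-voom (limma 3.58.1), RLE scaling, upper-quartile scaling, unfiltered genes, genes averaging at least 1 CPM, fits of the compared groups alone, a replicate block, a 1.2-fold threshold test and the omission of single libraries were run. Added after the data were seen were a mean of both wild type groups as the reference, Sox10 as a covariate, the replicate block with only the knockout and control groups, the spread without AzadC 2, a marker sum without Ttr, and ratios within a library. Some glial genes, and the ratios to one of them, are counted in the totals but not reported here. Simulated data were used to test the scripts.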

Additional observations from a re-analysis of the deposited data

Results flagged for a closer look

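The knockout effect against the control and the AzadC effect against the vehicle group were compared in the named genes, by an interaction contrast in edgeR. Of these genes 8 passed, where 4.4% of all tested genes did. Many of the named genes were picked for a small p in the knockout against the control. The contrast contains that difference, so the choice favoured passing and the count is only a description. Kit, a member, was among the 8, with a difference of 0.865 on the log2 scale (edgeR adjusted p = 0.000731). Its level was higher in all 3 knockout than in all 3 control libraries, and in AzadC against vehicle it had a log2 change of -0.032. Csf1r, the macrophage growth factor receptor, differed by 1.86 (adjusted p = 0.000131).

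For the others the knockout effect was the lower one. Dnmt1, the targeted gene, differed by -0.47 (edgeR adjusted p = 0.0209), a call lost against a 1.2-fold change (0.162) and without knockout 2, vehicle 3 or control 2 (0.0502 to 0.0659). Sox9 differed by -1.62 (edgeR adjusted p = 0.00341) and Sox5 by -1.06 (0.0294); Sox5 lost its call against a 1.2-fold change (0.0702) and without knockout 1 or 2, AzadC 1, control 2 or any 1 vehicle library (0.0536 to 0.0861). Egfr differed by -1.16 (adjusted p = 0.00499), Pmp22 by -1.29 (0.0097) and Stat5b by -0.603 (0.0126), which was lost against a 1.2-fold change (0.0654). Vehicle against control, Kit, Dnmt1, Pmp22 and Csf1r also passed by edgeR, with log2 changes of 0.63, 0.72, -0.91 and 0.54 (adjusted p = 0.00128, 0.000286, 0.0134 and 0.046). The Pmp22 call there was lost against a 1.2-fold change (0.0522). The Csf1r call there was lost with limma-voom (0.0843), with only the groups compared (0.099), against a 1.2-fold change (0.286), with Sox10 as a covariate (0.062) and without knockout 2 or 3, AzadC 1 or 2, vehicle 1 or 3, or control 2 or 3 (0.0537 to 0.176). By construction the contrast is knockout against vehicle plus vehicle against control, minus AzadC against vehicle. For Kit these log2 changes were 0.20, 0.63 and -0.032. Pmp22 averaged 36.3 CPM in the knockout, 35.9 CPM with vehicle and 67.8 CPM in the control. Csf1r averaged 92.1, 26.4 and 18 CPM in these groups, and Dnmt1 190, 451 and 274 CPM. The cause of the difference between the wild type groups was not tested.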

How the results depend on the processing

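The number of the 7 tested genes called in the knockout against the control (2) was 1 with DESeq2 and against a 1.2-fold change, 3 with limma-voom, without a filter and with only the groups compared (also with a replicate block there), and 4 with the mean of both wild type groups as the reference and with Sox10 as a covariate, both added after the data were seen; leaving out 1 library gave 1 to 3. Against the vehicle group (2) it was 0 against a 1.2-fold change, 3 without a filter, with only the groups compared and with Sox10 as a covariate, and 0 to 3 leaving out 1 library. For the difference between effects (1) it was 3 without a filter and 2 with Sox10 as a covariate, and 1 leaving out any 1 library. In AzadC against vehicle (0) and vehicle against control (1) no alternative run changed the number. Kit passed against the control in all 24 alternatives (adjusted p 1.1e-18 to 0.000725). Cdh19 passed in 13 of 24 against the control and in 15 of 22 against the vehicle group, Mitf in 17 of 22 against the vehicle group and Erbb3 in 8 of 24 against the control. The cause of these shifts was not tested. With Sox10 as a covariate, Erbb3 changed by 0.75 (adjusted p = 0.00029) and Mitf by 0.85 (0.0476) in the knockout against the control.

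Of all genes, 1077 were called in the knockout against the control at the 1.2-fold test (2473 in the main test) and 1360 to 2551 leaving out 1 library, and against the vehicle group 837 (1878) and 1010 to 2015. For AzadC against vehicle (2) the counts were 92 with DESeq2, 119 without a filter, 1 with the replicate block, 1 at the 1.2-fold test and 1 to 17 leaving out 1 library. For vehicle against control (610) they were 1314, 1259 and 116 with DESeq2, no filter and the 1.2-fold test, and 136 to 704 leaving out 1 library. For the difference (763) they were 1430, 1438 and 326, and 328 to 878.

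The replicate block over all 4 groups left the number of member genes called in each comparison at 2, 2, 0, 1 and 1, and it ended the calls of Itga4 (adjusted p = 0.0603) and Erbb2 (0.0556) against the control, which were also lost with the block and only these groups (0.0574 and 0.0539), as was that of Micall1 (0.0648). It also ended the calls of Rab27a against the vehicle group (0.0571) and of Sox5 for the difference (0.0518), and changed no other call of the genes named.

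Micall1, lower in the knockout against the control (-0.232, adjusted p = 0.0201), was higher against the mean of both wild type groups (0.27, adjusted p = 0.00345). The other changes of sign were in estimates that did not pass. With the mean reference Sox10 in the knockout was 0.0036. With Sox10 as a covariate, AzadC against vehicle gave 0.15 for Cdh19 and 0.0014 for Kit, vehicle against control 0.15 for Foxd3 and 0.14 for Cdh19, and the difference -0.093 for Foxd3. Leaving out 1 library, Sox10 ran from -0.43 to 0.23 in the knockout against the control and from -0.020 to 0.41 against the vehicle group, where Foxd3 ran from -0.0012 to 0.61 and Pmel from -0.17 to 0.23. In AzadC against vehicle the ranges were -0.76 to 0.076 for Sox10, -0.20 to 0.43 for Foxd3, -0.67 to 0.35 for Cdh19 and -0.056 to 0.0056 for Kit. In vehicle against control they were -0.62 to 0.039 for Sox10, -0.35 to 0.27 for Foxd3, -0.087 to 0.27 for Erbb3 and -0.34 to 0.034 for Cdh19. For the difference they were -0.26 to 0.63 for Sox10, -0.17 to 0.46 for Foxd3 and -0.10 to 0.41 for Mitf. Depth limits Dct and Pmel, which had 50 and 152 counts in all.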

Other observations

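The genes whose profile over the 12 libraries lay nearest to that of Sox10, by root mean square distance of centred log2 CPM, were Atp10b, Gpr17, Camk2b, L1cam and Aldh1a3, at distances of 0.249 to 0.333, against a median of 0.827 over all genes with a mean of at least 1 CPM. Gpr17, a receptor of oligodendrocyte precursors, averaged 26 CPM over the libraries and L1cam, an adhesion molecule of axons and glia, 12 CPM. The genes nearest to Erbb3 were Bcar3, Sntb1, Plcxd2, Celf2 and Gas7, at 0.165 to 0.203 against a median of 0.49. For Dct and Pmel, whose counts are few, the nearest genes lay at 0.441 to 0.494 and 0.171 to 0.192, against medians of 0.844 and 0.372. The 12 libraries share group differences and depth, and these distances are descriptions.

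Genes near Sox10 on chromosome 15 differed between the wild type groups, and were chosen after their values were seen. Polr2f, an RNA polymerase subunit whose gene lies 3133 bases from Sox10, averaged 76.8 ± 7.01 CPM in the knockout, 33.6 ± 2.45 CPM with AzadC, 37.7 ± 4.52 CPM with vehicle and 78.5 ± 12 CPM in the control (SD, n = 3 each). Micall1, a membrane trafficking gene, averaged 124 ± 4.75 CPM in the knockout, 70.4 ± 3.33 CPM with AzadC, 72.6 ± 3.74 CPM with vehicle and 145 ± 5.34 CPM in the control. Eif3l, a translation initiation factor subunit, averaged 431 ± 20.6 CPM in the knockout, 211 ± 3.14 CPM with AzadC, 223 ± 6.65 CPM with vehicle and 398 ± 14.8 CPM in the control. Vehicle against control, Polr2f and Micall1 had log2 changes of -1.06 and -0.998 (edgeR adjusted p = 0.000753 and 1.24e-06), while Sox10 had -0.38 (adjusted p = 0.726) with a 95% interval of -1.28 to 0.53, which holds both of those changes.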
